A study of Mus musculus with 18 samples.

Results

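Axon guidance ligands and receptors were followed across the rostral, middle and caudal neocortex of E13.5 mouse embryos. The genes were chosen by name, with earlier results of these data known: every probe whose platform gene symbol is an Eph receptor, an ephrin, a semaphorin of classes 3 to 7, a plexin, a neuropilin, a Slit, a Robo, a netrin, Dcc or an Unc5 receptor, with 1 probe per gene, that with values on most arrays. This gave 58 of the 15063 genes that the platform annotation names, on 66 of 21766 probes that are not control spots, and 56 of the genes had enough values to be tested among 18525 probes in all, called features below. The samples were 3 pools of rostral neocortex (R1, R2 and R3), 3 of middle neocortex (M1, M2 and M3) and 3 of caudal neocortex (C1, C2 and C3), all of the MF1 strain and at the same embryonic stage, with no treatment or allele named. The tissue of all 9 pools came from 4 embryos, and the labels do not tie pools to embryos, so the p-values cover only how far these pools scatter, and that scatter may be technical. Each pool was hybridised on 4 of the 18 arrays, 2 in Cy3 and 2 in Cy5, always against a pool of another region, so that 6 arrays joined each pair of regions.

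Axon guidance molecules steer growing axons and migrating neurons. Ephrins are membrane-bound ligands of Eph receptor tyrosine kinases, and graded ephrin and Eph levels map axons onto their targets. Secreted class 3 semaphorins bind neuropilins, which signal through plexins, while the membrane-bound classes bind plexins directly. Slits repel axons through Robo receptors, and netrins attract through Dcc and repel through Unc5 receptors. In the developing cortex these families guide thalamic and cortical axons, and some Eph and ephrin genes are known for graded expression along the cortical axes.

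The sequence just upstream of the transcription start is shown for the 3 genes with the lowest p in rostral against caudal, since nuclear receptors such as Nr2f1 and ETS factors such as Etv1 are themselves graded in this tissue. Sequences are those of RefSeq on GRCm38.p6, 250 bases up to the base before the start, plus strand, 5′ to 3′. They were searched on both strands for AGGTCA (reverse TGACCT), the half-site of nuclear receptors, and for CCGGAA (reverse TTCCGG), a core that ETS factors bind, and a match is in capitals. The first is Epha7 at chr4:28812881-28813130, upstream of 1 of its 2 listed starts, the second Nrp2 at chr1:62703067-62703316 and the third Sema5a at chr15:32244563-32244812. The Epha7 gene as listed begins at 28813066, so the end of its window lies within the gene.
Epha7: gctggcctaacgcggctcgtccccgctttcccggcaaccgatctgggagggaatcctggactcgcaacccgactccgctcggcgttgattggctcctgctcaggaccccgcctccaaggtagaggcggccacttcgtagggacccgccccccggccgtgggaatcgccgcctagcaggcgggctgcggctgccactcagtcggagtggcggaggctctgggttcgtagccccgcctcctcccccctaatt
Nrp2: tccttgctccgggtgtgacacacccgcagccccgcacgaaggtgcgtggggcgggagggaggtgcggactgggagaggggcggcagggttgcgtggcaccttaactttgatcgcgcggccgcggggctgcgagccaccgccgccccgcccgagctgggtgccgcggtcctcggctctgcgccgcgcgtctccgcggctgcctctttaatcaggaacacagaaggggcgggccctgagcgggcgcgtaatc
Sema5a: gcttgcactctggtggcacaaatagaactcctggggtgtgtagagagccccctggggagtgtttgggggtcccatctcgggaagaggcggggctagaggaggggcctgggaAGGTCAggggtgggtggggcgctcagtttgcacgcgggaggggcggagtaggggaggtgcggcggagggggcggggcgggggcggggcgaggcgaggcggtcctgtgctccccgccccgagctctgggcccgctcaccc
The windows are rich in G and C, at 69.2% for Epha7, 72.4% for Nrp2 and 72.0% for Sema5a. Sema5a held AGGTCA with its first base at -139 from the start, and neither motif was found in the windows of Epha7 and Nrp2. AGGTCA was in 14.02% of 32851 windows of this length, against 10 of the 66 windows (15.2%) of the 50 guidance genes with a window. CCGGAA was in 12.03% of windows, against 5 of those 66 (7.58%). A match is a description of letters, not of a bound site.

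Values are log2 ratios of 2 pools on 1 array, from which a value per pool was estimated relative to the mean of the 9 pools. They hold no expression level, so that whether a gene, or a marker of the neocortex, was present could not be checked, and levels of different genes cannot be compared. The direction of the ratio is likely, not stated: read as Cy5 over Cy3, Nr2f1 (-1.02 ± 0.069, SE) and Emx2 (-0.25 ± 0.081), known as caudal genes, were lower in rostral pools, and Etv1 (0.80 ± 0.071) and Spry2 (0.46 ± 0.060), known as rostral, were higher. In pooled tissue, fewer cells of a type and less RNA per cell cannot be told apart. An array gave between 18085 and 20693 values. Precision is limited by how many arrays there are.

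Across the guidance genes, no difference between regions passed the test across all features (limma, Benjamini-Hochberg adjusted p under 0.05). In rostral against caudal, 0 of 56 genes passed, against 0.0648% of features, and the lowest adjusted p was 0.344, for Sema5a. In rostral against middle 0 genes passed (0% of features; lowest adjusted p 0.929), likewise in middle against caudal (0% of features; lowest 0.535, Nrp2), and in the test of any difference among the 3 regions (0.0108% of features; lowest 0.457, Nrp2). At an unadjusted p under 0.05, 3 genes were counted in rostral against caudal (5.36%, against 7.90% of features), 3 in rostral against middle (against 5.25%), 2 in middle against caudal (against 4.86%) and 4 in the test of any difference (against 6.71%). In rostral against caudal these were 1 above 0 (4.17% of features), Sema5a, and 2 below (3.74% of features), Epha7 and Nrp2. In rostral against middle they were 2 above 0 (2.16% of features), Sema3c and Sema5a, and 1 below (3.09% of features), Slit3. In middle against caudal 0 lay above (3.08% of features) and 2 below (1.78% of features), Nrp2 and Sema3c. The totals over both directions lie near the background or below it in each comparison, so the counts are not a result about guidance genes.

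The sizes of the differences were of the same kind as elsewhere. The median rostral minus caudal difference was -0.015 for the guidance genes and 0.0016 over all features, and its median size without sign was 0.091, against 0.10. Of the 56 genes, 25 lay above 0 in rostral against caudal, against 50.4% of features, and without centring of the arrays, which shifts the median of all features by -0.069, 13 did. In rostral against middle 34 genes lay above 0 (50.7% of features), and 50 did without centring, where all features shift by 0.10. In middle against caudal 24 lay above 0 (50.7% of features), and 3 did without centring, where all features shift by -0.17. The mean of the middle pools fell between the rostral and caudal means for 18 genes (32.1%), against 36.8% of features. Differences below are relative to the array medians, on the log2 scale, with the region named first minus the other and with their standard error.

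**Figure D1:**
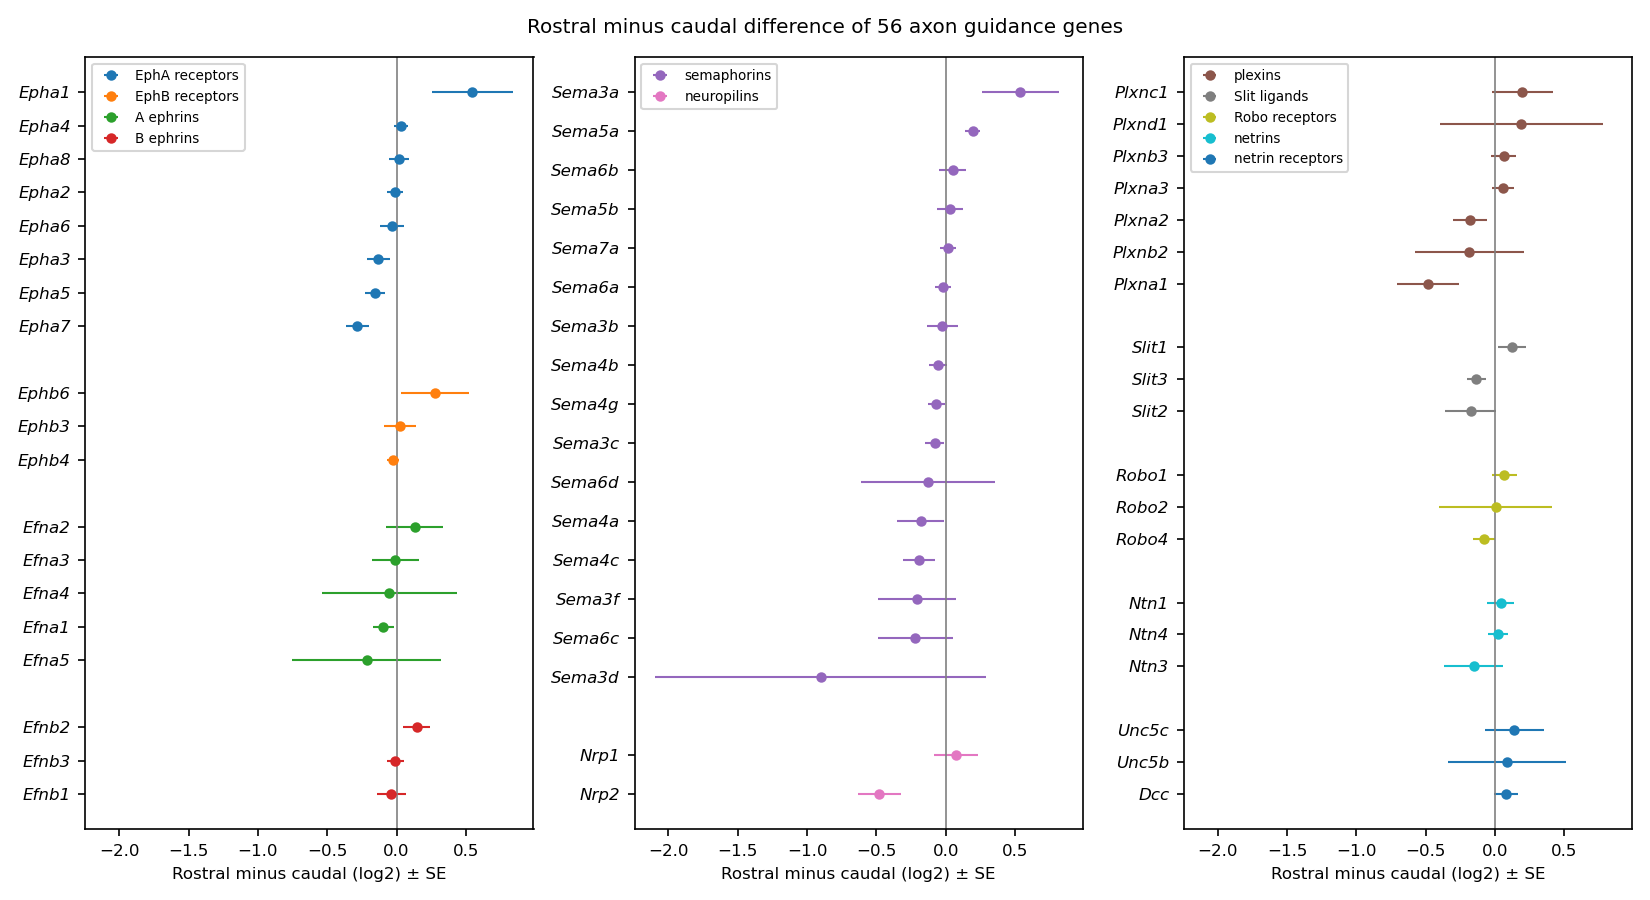
Rostral minus caudal difference (log2, x axis) of each of the 56 genes tested, by family; points are estimates and bars ± 1 standard error from limma over 9 pools. Most points lie within 0.5 of 0, and the bars of Sema3d, Plxnd1, Efna5, Efna4, Sema6d, Unc5b and Robo2 are the longest.

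How far a gene could be resolved differed widely. The residual SD of its ratios between arrays lay between 0.068 (Slit3) and 1.92 (Sema3d), with a median of 0.23, against 0.26 over all features. Of the 39 genes with a residual SD of 0.5 or less, 35 had a 95% interval of the rostral minus caudal difference that lay within 0.5 of 0, or 1.41-fold, and of the 17 noisier genes 0 did. For all features this share was 57.6%. The intervals of Ephb4 (-0.13 to 0.080), Epha4 (-0.087 to 0.15), Sema7a (-0.12 to 0.15) and Epha2 (-0.15 to 0.13) kept closest to 0. A second Sema7a probe gave 0.35, outside the interval of the first, so for Sema7a the small difference rests on 1 probe. Efna5, Efna4, Sema6d, Unc5b, Robo2, Plxnb2, Plxnd1 and Sema3d were not resolved, with standard errors of 0.39 to 1.195. Leaving out 1 pool in turn moved the rostral minus caudal difference by over 1.5 times, or turned it, in 27 of the 32 genes named by the rule (turned in 11). The other 5 were Epha5, Epha7, Nrp2, Sema5a and Slit3. It did so in 29 of 32 in rostral against middle and in 29 of 32 in middle against caudal. With the Gapdh control spots as covariate, 23 of 32 moved that far or turned in rostral against caudal (turned in 5). In rostral against middle 25 of 32 did (turned in 13), and in middle against caudal 15 of 32 (turned in 2). Sema3e had values on 9 arrays and Sema4d on 13 that did not cover all pools well enough, and neither was tested.

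Among the 8 EphA receptors tested, Epha7 had the lowest p. This receptor of A ephrins, known for its graded expression in the cortex, lies at chromosome 4, 28813066 to 28967503 (GRCm38.p6). Its pool values were -0.018, -0.24 and -0.11 in the rostral pools, -0.0070, -0.18 and 0.070 in the middle pools and 0.19, 0.11 and 0.18 in the caudal pools. All rostral and middle pools lay below all caudal pools, and the rostral and middle pools overlapped. The rostral minus caudal difference was -0.28 ± 0.085 (95% interval -0.48 to -0.083), or 1.22-fold lower in rostral pools, with limma adjusted p = 0.384. On the 6 arrays that held a rostral and a caudal pool the ratios of rostral over caudal were -0.63, -0.0070, -0.38, -0.22, -0.27 and -0.34, below 0 on every one. Middle minus caudal was -0.20 ± 0.085 (limma, adjusted p = 0.995) and rostral minus middle -0.083 ± 0.085, which turned to 0.018 without centring.

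Epha5, also a receptor of A ephrins, had pool values of -0.019, -0.084 and -0.058 in the rostral pools, -0.060, -0.047 and -0.044 in the middle pools and 0.20, -0.046 and 0.16 in the caudal pools. Pools C1 and C3 stood above the other 7 pools and C2 among them. Its rostral minus caudal difference was -0.16 ± 0.070 (limma, adjusted p = 0.66). Epha3 had -0.076, -0.073 and 0.061 in the rostral pools, 0.0001, -0.11 and -0.11 in the middle pools and 0.26, 0.0049 and 0.046 in the caudal pools, with C1 alone well above the rest. Its rostral minus caudal difference was -0.13 ± 0.082, and -0.052 without C1. Epha4, which binds ephrins of both classes, had 0.054, -0.041 and 0.082 in the rostral pools, -0.036, -0.041 and -0.025 in the middle pools and 0.027, 0.0019 and -0.022 in the caudal pools, and its 2 probes gave rostral minus caudal differences of 0.029 and 0.028. Epha1 had the highest difference of the EphA receptors, 0.55 ± 0.29, or 0.31 without C2, with pool values of 0.0024, 0.63 and 0.34 in the rostral pools, 0.34, -0.57 and -0.080 in the middle pools and -0.21, -0.62 and 0.17 in the caudal pools that overlapped between the regions.

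In middle against caudal, 7 of the 8 EphA receptors lay below 0 and only Epha1 above, where 50.7% of features lay above. Of the 7, Epha6 (-0.0089) and Epha8 (-0.0074) lay close to 0. Without C1 5 of 8 lay below, and without centring, which shifts all features by -0.17, 8 of 8. In rostral against caudal 5 of 8 lay below 0, where 50.4% of features lay above. Without C1 3 of 8 lay below, and without centring, which shifts all features by -0.069, 7 of 8. The 3 EphB receptors tested lay between -0.024 (Ephb4) and 0.28 (Ephb6) in rostral against caudal, the last with a standard error of 0.24. Ephb1 was not analysed here.

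The ligands of these receptors were less well resolved. Efna5, the A ephrin known for its part in thalamocortical mapping, had pool values of 0.46, -1.11 and 0.18 in the rostral pools, -0.31, 0.53 and 0.050 in the middle pools and 0.95, -0.094 and -0.67 in the caudal pools. Its pools scattered within every region, and the interval of its rostral minus caudal difference, -1.47 to 1.04, lies far to both sides of 0. Efna2 had 0.068, 0.21 and 0.072 in the rostral pools, -0.32, 0.32 and -0.32 in the middle pools and 0.31, -0.21 and -0.14 in the caudal pools, and Efna3 0.43, -0.13 and -0.047 in the rostral pools, -0.0098, -0.43 and -0.095 in the middle pools and 0.11, 0.17 and -0.0017 in the caudal pools. For Efna3 all middle pools lay below all caudal pools, with a middle minus caudal difference of -0.27 ± 0.17 (limma, adjusted p = 0.995). The other Efna3 probe gave 0.23 ± 0.17 for middle minus caudal, the opposite sign, and the rostral minus caudal difference was -0.0085 by the first probe and 0.16 by the other. Efnb2, a B ephrin that is also made by arterial endothelium, had -0.075, 0.22 and -0.0069 in the rostral pools, -0.026, 0.015 and 0.17 in the middle pools and -0.028, -0.22 and -0.046 in the caudal pools. Its middle pools lay above its caudal pools by a narrow gap, and the differences from caudal pools were 0.15 ± 0.10 for middle and 0.14 ± 0.10 for rostral. Of the 5 A ephrins, 4 lay below 0 in rostral against caudal, where 50.4% of features lay above, and 2 of 5 without C1. Of the 3 B ephrins 2 lay below 0.

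Of the 18 semaphorins 16 were tested, and Sema5a had the lowest p of all guidance genes in rostral against caudal. Sema5a, a membrane-bound semaphorin with thrombospondin repeats, lies at chromosome 15, 32244813 to 32696341. Its pool values were 0.080, 0.16 and 0.094 in the rostral pools, -0.042, -0.023 and -0.015 in the middle pools and -0.036, -0.17 and -0.050 in the caudal pools. Every rostral pool lay above every middle and caudal pool. The rostral minus caudal difference was 0.20 ± 0.054 (95% interval 0.069 to 0.32), or 1.15-fold higher in rostral pools, with limma adjusted p = 0.344. The 6 arrays of rostral against caudal gave 0.14, 0.20, 0.11, 0.12, 0.26 and 0.19, above 0 on every one. Rostral minus middle was 0.14 ± 0.054 (limma, adjusted p = 0.929), and middle minus caudal 0.058 ± 0.054, which turned to -0.12 without centring.

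Sema3c, a secreted class 3 semaphorin, had no difference that passed the test. Its pool values were 0.0092, 0.027 and 0.061 in the rostral pools, -0.098, -0.13 and -0.21 in the middle pools and 0.25, 0.031 and 0.063 in the caudal pools. All middle pools lay below all rostral and all caudal pools, and the ends overlapped. Middle minus caudal was -0.26 ± 0.070 (limma, adjusted p = 0.607) and rostral minus middle 0.18 ± 0.070 (adjusted p = 0.929). Rostral over middle was above 0 on 6 of 6 arrays, between 0.088 and 0.29, and middle over caudal was below 0 on 5 of 6. A second Sema3c probe, with values on 16 arrays, gave -0.12 ± 0.21 for rostral minus middle and 0.050 ± 0.21 for middle minus caudal, the opposite signs with about 3 times the standard error. With the Gapdh control spots as covariate the rostral minus middle difference was 0.068 by the first probe.

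Sema3a, the secreted semaphorin that collapses growth cones through Nrp1, had 0.12, -0.037 and 0.69 in the rostral pools, 0.32, -0.29 and 0.040 in the middle pools and 0.15, -0.29 and -0.70 in the caudal pools. Its rostral minus caudal difference of 0.54 ± 0.28 was among the highest of the guidance genes, but the regions overlapped (limma, adjusted p = 0.756). It was 0.29 without R3, and 0.16 with the Gapdh control spots as covariate. At the other end stood Sema3d at -0.90 ± 1.195, with values on 14 arrays and pool values between -3.97 in M3 and 2.37 in C2. Of the 16 semaphorins, 11 lay below 0 in rostral against caudal, where 50.4% of features lay above. Without C1 9 of 15 lay below, and without centring, which shifts all features by -0.069, 14 of 16. Sema4b, Sema5b, Sema6a, Sema6b and Sema7a had differences between -0.056 and 0.050 with standard errors of 0.056 to 0.098. The second Sema7a probe gave 0.35 for rostral minus caudal.

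Nrp2, the neuropilin that binds class 3 semaphorins such as Sema3f, lies at chromosome 1, 62703317 to 62818692 and showed the widest difference between regions of the 5 genes with an unadjusted p under 0.05 in any comparison. Its pool values were 0.068, 0.12 and -0.49 in the rostral pools, -0.34, -0.25 and -0.25 in the middle pools and 0.46, 0.31 and 0.36 in the caudal pools. Every caudal pool lay above every other pool, the middle pools lay close together, and R3 stood far below R1 and R2. Middle minus caudal was -0.66 ± 0.16, or 1.58-fold lower in middle pools (limma, adjusted p = 0.535), and the 6 arrays of middle against caudal gave -0.18, -0.92, -0.60, -0.71, -0.57 and -0.85, below 0 on every one. Rostral minus caudal was -0.48 ± 0.16 (95% interval -0.85 to -0.11; limma, adjusted p = 0.441), and -0.33 without R3. The 6 arrays of that pair gave -0.54, -0.82, -0.73, 0.17, -0.41 and -0.67, with 1 of 6 above 0, and 6 of 6 below 0 once the dye term of the gene was subtracted. Nrp2 ratios scattered between arrays with a residual SD of 0.51, above the median of the guidance genes.

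Nrp1, the other neuropilin, had values on 15 arrays and pool values of -0.016, 0.12 and 0.12 in the rostral pools, 0.069, 0.058 and -0.36 in the middle pools and 0.29, -0.17 and -0.11 in the caudal pools. Its regions overlapped, with a rostral minus caudal difference of 0.072 ± 0.16. Among the 7 plexins, the receptors through which semaphorins signal, rostral minus caudal ran from -0.49 ± 0.23 (Plxna1) to 0.20 ± 0.22 (Plxnc1). Plxna1 had -0.68, -0.15 and 0.016 in the rostral pools, -0.14, 0.30 and 0.017 in the middle pools and 0.058, 0.55 and 0.037 in the caudal pools, so that its rostral pools lay below its caudal pools by a narrow gap, and a second probe gave -0.098 ± 0.091. The difference was -0.23 without C2 and -0.24 without R1. On 1 of the 6 arrays of rostral against caudal, R1 and C2, its ratio was -2.26, and on the others it lay between -0.68 and 0.071. Plxna2 had -0.26, -0.0001 and 0.0075 in the rostral pools, 0.058, -0.085 and -0.023 in the middle pools and 0.097, -0.11 and 0.31 in the caudal pools, with a rostral minus caudal difference of -0.18 ± 0.12, -0.049 without C3, and -0.0018 ± 0.077 by a second probe. Plxnd1, a plexin also known from blood vessels, ranged from -1.22 in C2 to 1.18 in M3 and was not resolved (0.19 ± 0.59).

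**Figure D2:**
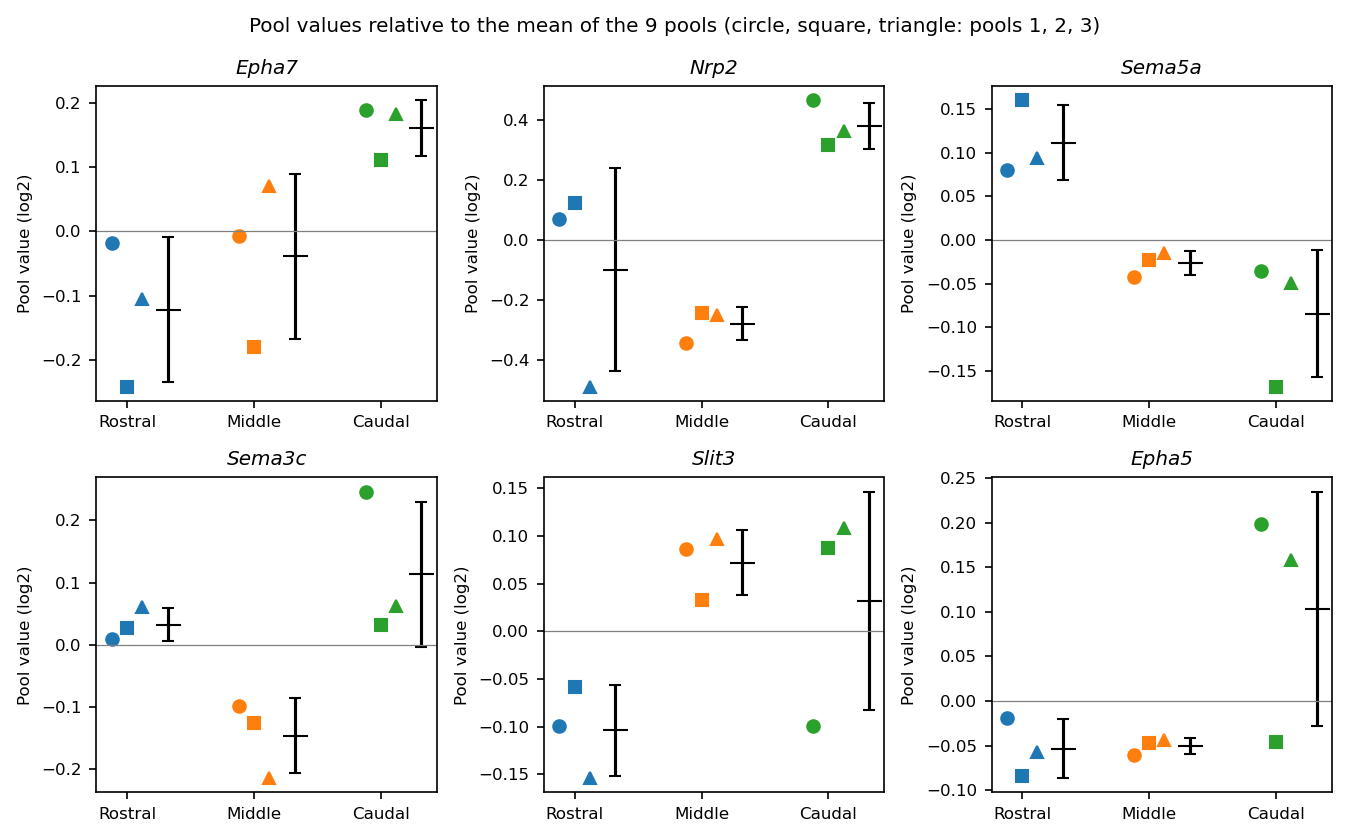
Pool values (log2, relative to the mean of the 9 pools; y axes differ) of 6 genes in rostral, middle and caudal neocortex; circle, square and triangle are pools 1, 2 and 3, and the bar beside each region is its mean ± SD (n = 3 pools). Nrp2 and Epha7 were highest in all 3 caudal pools, Sema5a in all 3 rostral pools, and Sema3c was lowest in all 3 middle pools.

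Slit3, a secreted ligand of Robo receptors, had pool values of -0.099, -0.058 and -0.15 in the rostral pools, 0.087, 0.033 and 0.096 in the middle pools and -0.10, 0.087 and 0.11 in the caudal pools. Each rostral pool was lower than each middle pool, and C1 lay with the rostral pools. Rostral minus middle was -0.18 ± 0.068 (limma, adjusted p = 0.929), below 0 on 6 of 6 arrays, and rostral minus caudal -0.14 ± 0.068. A second Slit3 probe gave 0.0054 ± 0.050 for rostral minus middle, so the difference rests on 1 probe. With the Gapdh control spots as covariate in the fit it was -0.046. Slit1 had -0.011, -0.0081 and 0.21 in the rostral pools, 0.057, 0.0003 and -0.082 in the middle pools and 0.063, -0.22 and -0.012 in the caudal pools, and Slit2 -0.0056, 0.21 and -0.24 in the rostral pools, -0.089, -0.39 and 0.021 in the middle pools and 0.24, -0.16 and 0.41 in the caudal pools. The regions of both overlapped, with rostral minus caudal differences of 0.12 ± 0.098 for Slit1 and -0.18 ± 0.19 for Slit2.

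The Slit receptor Robo1 had 0.0056, 0.025 and 0.20 in the rostral pools, -0.054, -0.092 and -0.12 in the middle pools and 0.13, -0.16 and 0.069 in the caudal pools. Its rostral pools lay above its middle pools (difference 0.17 ± 0.091; limma, adjusted p = 0.965), and its ends overlapped. That difference was 0.081 with the Gapdh control spots as covariate. Robo2 had values on 13 arrays and pool values of -0.36, 0.086 and 0.57 in the rostral pools, 0.71, -0.87 and -0.43 in the middle pools and -0.062, 0.21 and 0.15 in the caudal pools, with a rostral minus caudal difference of 0.0051 ± 0.41. Robo4, the Robo of endothelium, had a difference of -0.080 ± 0.079.

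Ntn1, the netrin known as a guidance cue of commissural and cortical axons, had -0.097, 0.087 and 0.047 in the rostral pools, -0.081, -0.069 and 0.19 in the middle pools and -0.065, -0.094 and 0.078 in the caudal pools, and the 3 regions overlapped (rostral minus caudal 0.039 ± 0.096). Ntn4 lay at 0.020 ± 0.074 and Ntn3 at -0.16 ± 0.21. For the netrin receptor Dcc, the probe that stands for the gene gave -0.086, 0.044 and 0.20 in the rostral pools, -0.044, -0.034 and 0.0016 in the middle pools and 0.066, -0.14 and -0.0060 in the caudal pools, with differences of 0.080 ± 0.086 for rostral minus caudal and 0.078 ± 0.086 for rostral minus middle. A second Dcc probe, also with values on all arrays, gave 0.40, 0.26 and 0.22 in the rostral pools, -0.40, -0.12 and -0.16 in the middle pools and 0.11, -0.17 and -0.14 in the caudal pools. By that probe every rostral pool lay above every middle and caudal pool, with 0.37 ± 0.11 for rostral minus caudal (limma, adjusted p = 0.379) and 0.52 ± 0.11 for rostral minus middle (adjusted p = 0.587). In both comparisons the probes share their sign and differ in size by over 4 times. For middle minus caudal they gave 0.0014 ± 0.086 and -0.16 ± 0.11, of opposite sign. Unc5c, a repulsive netrin receptor, had 0.16, -0.032 and 0.14 in the rostral pools, 0.32, -0.090 and -0.34 in the middle pools and 0.34, -0.18 and -0.32 in the caudal pools and a rostral minus caudal difference of 0.14 ± 0.22.

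**Figure D3:**
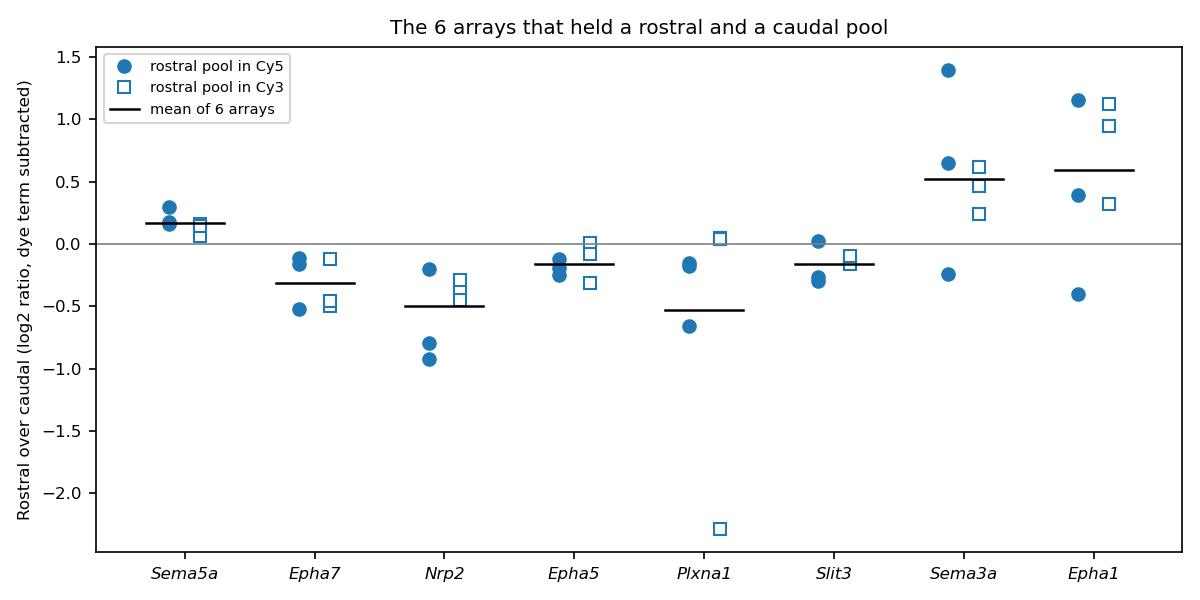
Ratio of rostral over caudal (log2, dye term of the gene subtracted; y axis) on the 6 arrays that held both, for the 8 guidance genes with the lowest p in that comparison; filled circles are arrays with the rostral pool in Cy5, open squares arrays with it in Cy3, and lines the mean of 6 arrays. Sema5a lies above 0 on 6 of 6 arrays, Epha7 and Nrp2 below 0 on 6 of 6, and 1 array with a ratio of -2.29 sets the mean of Plxna1 apart from its other arrays.

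In 8 genes 2 probes could be compared, and 7 gave the same sign in rostral against caudal, the exception being Efna3. Rostral against middle gave the same sign in 3 of 8, with opposite signs for Efna3, Plxna2, Sema3c, Sema7a and Slit3. Middle against caudal also gave it in 3 of 8, with opposite signs for Dcc, Efna3, Epha4, Sema3c and Slit3. Counting the genes whose pools do not overlap between 2 regions gave 4 of 56 (7.14%) in rostral against caudal, against 12.1% of features: Sema5a above, Epha7, Nrp2 and Plxna1 below. Rostral against middle gave 4, against 12.8% of features, with Robo1, Sema3c and Sema5a above and Slit3 below. Middle against caudal gave 8 (14.3%), against 10.6% of features, with Efnb2 above and Efna3, Epha3, Epha4, Epha7, Nrp2, Sema3c and Sema4g below.

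For each gene the pool with the highest and the lowest value was also counted. C1 was the highest of the 9 pools for 20 of 56 genes (35.7%), among them Epha3, Epha5, Epha7, Nrp1, Nrp2, Sema3c and Plxnb2, against 15.4% of features. M3 was the lowest for 14 genes (25%), against 10.2% of features. For 10 genes both held, against 3.12% of features. C1 and M3 met on 1 array. Without it C1 was highest for 14 genes (15.3% of features) and M3 lowest for 12 (10.6% of features). Both then held for 6, against 3.05% of features. The median pool value of the guidance genes was 0.098 in C1 and between -0.052 and 0.047 in the other pools, while that of all features lay between -0.018 and 0.016. The median of the Gapdh control spots was -0.14 in C1, -0.15 in R3 and 0.15 in C3, and its part in the C1 and M3 counts was not tested. Without C1, the count above 0 in rostral against caudal was 30 of 54, with a median of 0.019.

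**Figure D4:**
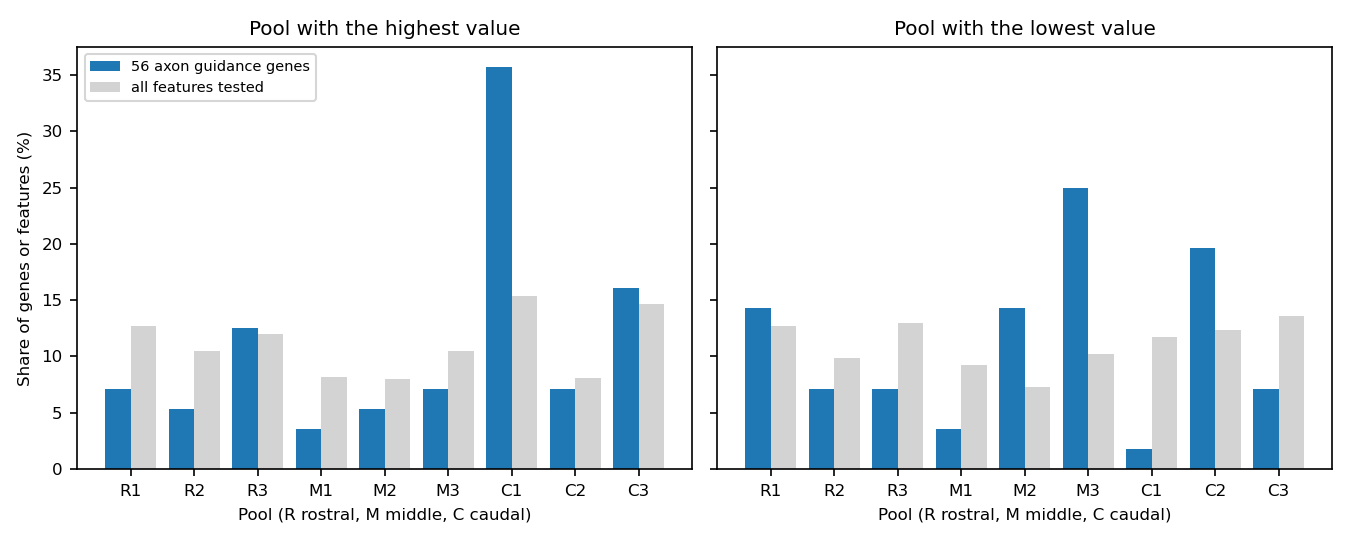
Share (%, y axes) of the 56 guidance genes (blue) and of all 18525 features tested (grey) for which each pool (x axis) had the highest value, left, or the lowest, right. C1 was highest for 35.7% of the guidance genes against 15.4% of features, and M3 lowest for 25% against 10.2%.

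Other genes of the pathway were taken from lists of co-receptors and of cytoplasmic effectors. Of 32 co-receptors and related guidance molecules, 27 were tested and 0 passed in any comparison at an adjusted p under 0.05. As for the guidance genes, their median pool value was highest in C1, at 0.11, and lay between -0.12 and 0.049 in the other pools. In rostral against caudal 10 lay above 0 and 17 below, with a median of -0.032, and 0 above and 5 below had an unadjusted p under 0.05, where 4.17% of features lay above and 3.74% below. These 5 were Neo1, the neogenin receptor of netrins and repulsive guidance molecules (-0.35 ± 0.073), the adhesion molecule Flrt3, a Robo1 and Unc5 partner (-0.47 ± 0.097), the chemokine gene Cxcl12 (-0.27 ± 0.071), the glypican Gpc3 (-0.21 ± 0.054) and the netrin G gene Ntng1 (-0.23 ± 0.094). Neo1 had -0.16, -0.22 and -0.15 in the rostral pools, 0.014, -0.024 and 0.0034 in the middle pools and 0.33, 0.068 and 0.13 in the caudal pools, with no overlap between the regions (limma, adjusted p = 0.193 in rostral against caudal). Flrt3 had -0.19, -0.28 and -0.17 in the rostral pools, -0.21, 0.036 and 0.053 in the middle pools and 0.40, 0.16 and 0.21 in the caudal pools, with all caudal pools above all others (limma, adjusted p = 0.191). At that threshold rostral against middle gave 1 above (2.16% of features), Rgmb (0.28 ± 0.091), and 3 below (3.09% of features), Neo1, Cxcl12 and Gpc3. Middle against caudal gave 1 above (3.08% of features), Dscam (0.19 ± 0.052), and 4 below (1.78% of features), Neo1, Rgmb, Flrt3 and Dscaml1 (-0.47 ± 0.13).

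Of 51 cytoplasmic effectors, which carry guidance signals to the cytoskeleton, 40 were tested and 0 passed. Their median pool value was 0.016 in C1 and between -0.034 and 0.030 in the other pools. In rostral against caudal 16 lay above 0 and 24 below, with a median of -0.012. An unadjusted p under 0.05 was reached by 2 above (4.17% of features), Rnd2 (0.26 ± 0.078) and the exchange factor Trio (0.26 ± 0.085), and by 4 below (3.74% of features): Limk2, a kinase of cofilin (-0.29 ± 0.071), Gsk3b (-0.27 ± 0.064), the adaptor Nck1 (-0.20 ± 0.079) and cofilin itself, Cfl1 (-0.19 ± 0.057). In middle against caudal 4 lay above (3.08% of features), namely Rnd2 (0.34 ± 0.078), Dpysl5 (0.15 ± 0.055), Nck2 (0.22 ± 0.066) and Srgap1 (0.62 ± 0.21), and 2 below (1.78% of features), Limk2 (-0.24 ± 0.071) and Gsk3b (-0.16 ± 0.064). In rostral against middle 0 lay above (2.16% of features) and 2 below (3.09% of features), Nck2 (-0.22 ± 0.066) and Cfl1 (-0.22 ± 0.057). For Rnd2 all caudal pools lay below all others.

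Markers of other cells that the dissection could hold were summed up in the same way. All 7 meningeal markers tested lay below 0 in rostral against caudal, with a median of -0.15, led by Ptgds (-0.66 ± 0.13), Dcn (-0.39 ± 0.089) and Lum (-0.33 ± 0.14). Their median per pool was 0.019, -0.097 and -0.14 in R1 to R3, 0.016, -0.086 and -0.051 in M1 to M3, and 0.13, 0.010 and 0.15 in C1 to C3. Of the 8 endothelial markers 7 lay below 0 (median -0.076), and of the 4 markers of red blood cells tested 3 did (median -0.245). Medians of the other lists were -0.048 for neurons (4 of 10 above 0), 0.011 for radial glia (5 of 8), -0.0091 for Cajal-Retzius cells (2 of 5), 0.0084 for ventral telencephalon (5 of 9), -0.0051 for choroid plexus and hem (3 of 7), 0.22 for diencephalon (5 of 6) and -0.0018 for neocortex (3 of 6). Among the 8 radial glia markers 1 had a limma adjusted p under 0.05 in rostral against caudal, against 0.0648% of features. In rostral against middle the medians were 0.14 for choroid plexus and hem (5 of 7 above 0), 0.13 for diencephalon (4 of 6 above 0) and -0.21 for red blood cells (4 of 4 below 0), and between -0.052 and 0.0023 for the others. The medians in middle against caudal were -0.11 for choroid plexus and hem (5 of 7 below 0), -0.11 for meninges (6 of 7 below 0) and between -0.050 and 0.056 for the others. The part of any of these cells in the values of Nrp2, Sema3c, Flrt3, Cxcl12 or any other gene was not tested.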

How the data were processed

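RNA of 9 pools of neocortex, extracted with Trizol per the labels' protocols, was measured on 18 arrays with 2 dyes. The authors deposited 1 log2 ratio per probe and array. That the base is 2 follows from the highest value of each array, 16.61, the log2 of 1e+05, where ratios were capped. For scanner, background correction, filters and normalization, nothing is stated: not given in the sources used here. Probes were named by the platform annotation, and all 58 symbols were found in the RefSeq table of GRCm38.p6.

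Capped ratios (1477 in all, 2 in guidance probes) were set to missing. Array medians lay between -0.093 and 0.612, and each array was centred on its median. The 232 Gapdh control spots were left out of the tests. Features with values on at least 12 arrays, and at least 2 of each pool, were kept; this filter is on missing values, not on level. Pool values, summing to 0, and a dye term were estimated per feature by least squares. The linear model, from limma 3.58.1 (R 4.3.3), took region as its factor over the 9 pool values (6 residual and 1.26 prior degrees of freedom), two-sided, with p-values adjusted by Benjamini and Hochberg over 18525 features. The procedure was tested on simulated data with differences larger than most seen here. That test therefore does not show how often smaller differences would be found.

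Deviations from the region means correlated across features at -0.43 to -0.057 between pools of the same number. Such pools met on no array, and errors shared by pool values in this layout can by themselves make these correlations negative. They therefore cannot decide whether the pool numbers pair the pools, and the main fit took the pools as unpaired. No batch is named in the labels. The text names genes with an unadjusted p under 0.05 in any comparison, a list of 22 genes described in the developing cortex (21 tested), and the extremes of each family. The members and lists were chosen with earlier results of these data known.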

Additional observations from a re-analysis of the deposited data

How the results depend on the processing

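In each comparison 0 guidance genes passed, and this held in all 40 alternatives (39 for the test of any difference) but one, which treated the 18 arrays as replicates although they share pools: then 3 passed in rostral against caudal (Epha7, Sema5a and Slit3, among 1325 features), 2 in rostral against middle (Sema3c and Slit3), 2 in middle against caudal (Nrp2 and Sema3c) and 5 in the test of any difference. In rostral against caudal the 3 of 56 genes stood against 1325 of 18525 features. Counts over all features are not printed here for the other tests. The counts with arrays as replicates are therefore no result about guidance genes. With the pool number as a replicate block 0 passed in all 4 tests. Signs turned with the second probe of a gene: Sema3c was -0.12 in rostral against middle and 0.050 in middle against caudal, and Slit3 was 0.0054 in rostral against middle; the cause was not tested. They also turned in rostral against middle for Efna3, Plxna2 and Sema7a, in middle against caudal for Dcc, Efna3, Epha4 and Slit3, and in rostral against caudal for Efna3. At an unadjusted p under 0.05, leaving out 1 pool gave 2 to 5 genes in rostral against caudal, 0 to 3 in rostral against middle, 2 to 4 in middle against caudal and 1 to 4 in the test of any difference, and leaving out 1 array 2 to 4, 1 to 4, 2 to 7 and 2 to 4 in the same order. No share of all features is set beside these counts, so they show only how far the calls moved. The rostral minus caudal difference kept its sign in 40 of 40 alternatives for Epha7 (-0.36 to -0.21), Sema5a (0.12 to 0.23) and Nrp2 (-0.63 to -0.33), with an unadjusted p under 0.05 in 39, 39 and 36. Signs in rostral against middle held in 40 of 40 too, the second probes apart, but with an unadjusted p under 0.05 in 25 for Sema3c, 26 for Sema5a and 29 for Slit3. In middle against caudal it was under 0.05 in 39 for Nrp2 and 40 for Sema3c. These genes were picked by their unadjusted p, and the alternatives refit the same data. Kept signs and low p-values are therefore not separate evidence. For Nrp2 the rostral minus caudal difference had a limma adjusted p of 0.887 without R3 and 0.817 without C1. Leaving out arrays in turn moved the count of genes with their highest value in C1 between 14 and 22 and with their lowest in M3 between 11 and 16, an alternative chosen after seeing the data. The number of pools, 3 per region, limits what could be called: the median standard error of a difference was 0.10.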
